A study of Homo sapiens with 6 samples.

Results

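The genes described here are the members of the MYC, MAX and MXD network in LN229 cells, an established human glioblastoma line. They were taken by exact gene symbol from the deposited table, which held all 10 of them (MYC, MYCN, MYCL, MAX, MXD1, MXD3, MXD4, MNT, MLX and MGA) among 24489 rows. The study compared 3 libraries of LN229 cells transduced with LACTB, a mitochondrial serine beta-lactamase-like protein, with 3 libraries of LN229 cells transduced with the vector alone. The labels name no promoter, clone or time after transduction, and they leave unsaid whether libraries of one group were grown as separate cultures. The p-values therefore cover library-to-library spread alone, and that spread may be technical.

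MYC, MYCN and MYCL are basic helix-loop-helix leucine zipper transcription factors that bind DNA as dimers with MAX, at the E-box sequence CACGTG and its relatives, and mostly activate genes of growth and ribosome production. MXD proteins and MNT compete for MAX and recruit SIN3 and histone deacetylases, which repress. MLX is a MAX-like partner that serves the glucose-sensing Mondo proteins, MNT and some MXD proteins, and MGA is a very large MAX partner that belongs to the repressive PRC1.6 complex. MYC is expressed in many proliferating cells, while MYCN is known for neural progenitors and neuroblastoma and MYCL for some lung cancers.

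RefSeq promoter windows (GRCh38.p14) were matched for 9 of the 10 genes, and the 250 bases before the RefSeq start are considered here. RefSeq starts differ from the GENCODE gene positions given further below. Against those positions the MYCL window lies inside its gene, and the MXD4, MNT and MLX windows reach into theirs. The following 5 windows are shown, MYCN and MYCL because their transcripts differed most between the groups, and MXD4, MNT and MLX because their windows hold CACGTG, the E-box that these same proteins bind. Capitals mark matches on either strand to CACGTG, or to TTTCGCGC, an E2F-type sequence, and the sequences run 5′ to 3′ on the strand of the gene.
MYCN, chr2:15940300-15940549, plus strand: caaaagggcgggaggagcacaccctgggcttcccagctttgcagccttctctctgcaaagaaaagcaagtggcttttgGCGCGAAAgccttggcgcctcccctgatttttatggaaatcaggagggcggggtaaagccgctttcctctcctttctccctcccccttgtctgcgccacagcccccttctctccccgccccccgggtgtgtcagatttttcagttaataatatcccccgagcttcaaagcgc
MYCL, chr1:39901918-39902167, minus strand: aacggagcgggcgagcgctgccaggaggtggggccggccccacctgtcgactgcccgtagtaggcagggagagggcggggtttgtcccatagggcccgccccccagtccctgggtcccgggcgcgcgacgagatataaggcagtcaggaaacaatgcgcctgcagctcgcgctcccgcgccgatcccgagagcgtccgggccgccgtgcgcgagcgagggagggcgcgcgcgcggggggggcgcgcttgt
MXD4, chr4:2262110-2262359, minus strand: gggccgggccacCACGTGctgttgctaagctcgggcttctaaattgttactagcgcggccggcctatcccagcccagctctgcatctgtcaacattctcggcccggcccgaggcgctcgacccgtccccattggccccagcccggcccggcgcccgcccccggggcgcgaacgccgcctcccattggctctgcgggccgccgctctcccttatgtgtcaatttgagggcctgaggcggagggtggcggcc
MNT, chr17:2401061-2401310, minus strand: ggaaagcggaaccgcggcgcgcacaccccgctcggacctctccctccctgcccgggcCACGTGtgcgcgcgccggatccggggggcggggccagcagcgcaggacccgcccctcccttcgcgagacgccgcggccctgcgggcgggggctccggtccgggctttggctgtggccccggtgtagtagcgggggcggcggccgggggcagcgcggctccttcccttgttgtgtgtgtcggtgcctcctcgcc
MLX, chr17:42566850-42567099, plus strand: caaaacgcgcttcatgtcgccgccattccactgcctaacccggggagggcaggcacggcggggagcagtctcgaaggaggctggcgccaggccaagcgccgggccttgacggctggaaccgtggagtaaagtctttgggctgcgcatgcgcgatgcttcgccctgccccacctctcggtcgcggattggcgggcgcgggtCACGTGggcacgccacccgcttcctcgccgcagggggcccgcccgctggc
The motif CACGTG, a palindrome, stood 238 bases before the RefSeq start in MXD4, 193 bases before it in MNT and 50 bases before it in MLX. It was found in 6.34% of the 35116 RefSeq windows of the same length. The motif TTTCGCGC, read here on the opposite strand, stood 172 bases before the RefSeq start of MYCN and was found in 0.439% of all windows. A match is only a run of letters and was not tested for binding.

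The table gives 1 normalized read count per gene and library, and genes averaging 1 CPM or more (37.7 normalized counts) were tested with limma on log2(value + 1). Column totals were 34907394 to 35683869 normalized counts in LACTB libraries and 38049489 to 41384595 in vector libraries. LACTB itself stood at 4268, 4078 and 4203 normalized counts in LACTB libraries, against 458, 515 and 393 in vector libraries. All 6 glial and glioma markers examined (GFAP, SOX2, NES, VIM, S100B and OLIG2) passed the filter in these cells. Of 15 markers of neurons, leukocytes, endothelium, epithelium and fibroblasts, 10 passed the filter. The summed epithelial markers stood at 2765 to 3249 normalized counts in LACTB libraries, against 5866 to 7158 in vector libraries, with KRT18 averaging 2493 in LACTB libraries and 5553 in vector libraries and EPCAM near 0 in both. The summed leukocyte markers, nearly all CD68, stood at 1578 to 1682 in LACTB libraries, against 1029 to 1122 in vector libraries. The neuronal, endothelial and fibroblast sums overlapped between the groups, but members of the neuronal and fibroblast sums moved in opposite directions. SYT1 averaged 379 in LACTB libraries and 123 in vector libraries, while SNAP25 averaged 314 and 407. COL1A1 averaged 242 and 152, while DCN averaged 118 and 203 and PDGFRB 205 and 254. The glial sum overlapped between the groups as well. Within it S100B averaged 14499 in LACTB libraries and 33778 in vector libraries, and OLIG2 averaged 302 and 445. SOX2 went the other way, at 2674 and 1131, and so did VIM (35300 and 25367), NES (38875 and 33779) and GFAP (122 and 74.5). The part of these markers in the results below was not tested. PTPRC, CD3E, EPCAM, CDH5 and RBFOX3 did not pass the filter, with group means of at most 17.8 normalized counts.

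The MYC paralogs differed from each other in how they moved. MYCN and MYCL were much lower in the LACTB libraries, while MYC, by far the most abundant of the 3, did not pass the test. Of the 9 network genes tested, MYCN, MLX and MXD4 fell and MGA rose, and the other 5 did not pass. Across all genes tested 51.9% passed the threshold (adjusted p under 0.05), with 27.4% higher and 24.5% lower, so 4 calls among 9 genes is close to the background. The groups did not overlap for 7 of the 9 genes, against 59.7% of all genes tested, and the median log2 difference was -0.19 over the 9 genes and 0.05 over all genes tested.

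**Figure D1:**
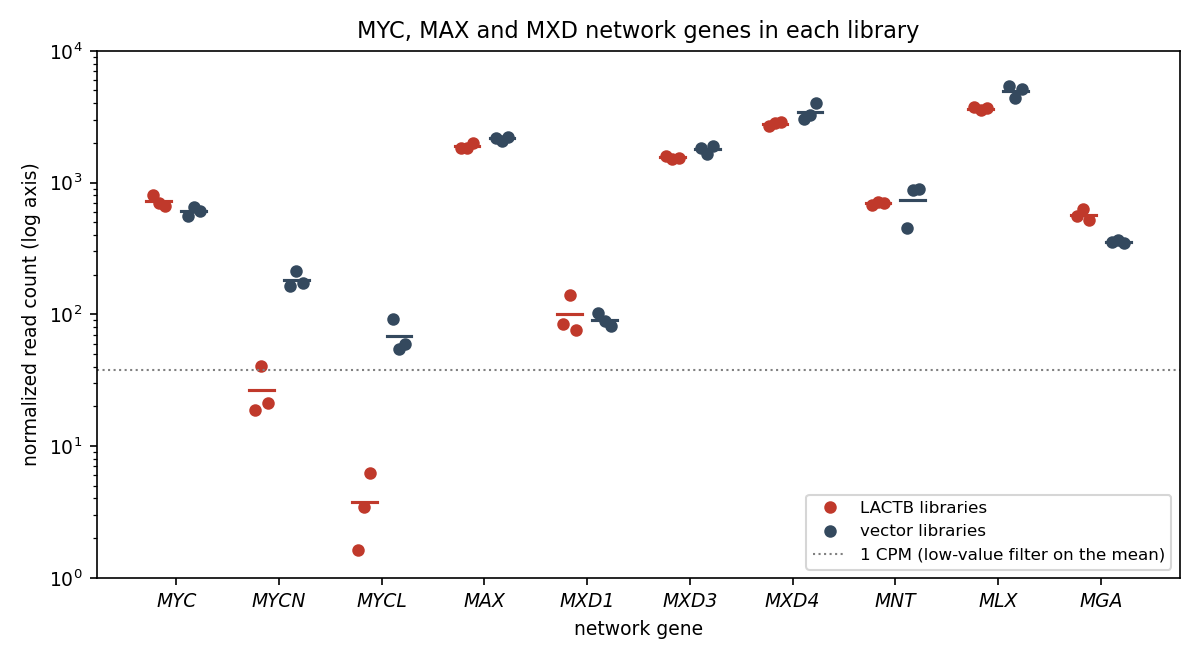
Normalized read count (log axis) of each network gene in each of the 3 LACTB and 3 vector libraries, with points for libraries, horizontal bars for group means and a dotted line at 1 CPM. MYCN and MYCL show the widest gap between groups, and the MYC, MAX and MXD3 groups lie next to each other.

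MYCN (chromosome 2, 15940564 to 15947007, plus strand, GRCh38) stood at 18.8, 40.4 and 21.3 normalized counts in the LACTB libraries, against 165, 213 and 172 in the vector libraries. All LACTB values lay far below all vector values. The mean was 26.8 ± 11.8 in LACTB libraries and 184 ± 25.8 in vector libraries (SD, n = 3 each), which is 6.85-fold lower in LACTB libraries. Its log2 difference came to -2.80 (SE 0.30, limma adjusted p = 1.4e-07). MYCN passed the low-value filter through the vector libraries alone, so its passing the test is partly given by that filter. The difference remained past the threshold under each alternative in which MYCN was tested, between -3.13 and -1.79, and the smallest came with a pseudocount of 1 CPM. The antisense gene MYCNOS overlaps MYCN by 1686 bases and stood at 0, 1.71 and 4.17 in LACTB libraries, against 15.9, 8.98 and 7.53 in vector libraries. Whether reads were assigned by strand is not given in the sources used here, so the 2 transcripts cannot be told apart with certainty.

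MYCL (chromosome 1, 39895426 to 39902256, minus strand) stood at 1.61, 3.43 and 6.29 normalized counts in the LACTB libraries, against 91.3, 54.8 and 59.7 in the vector libraries. The groups were far apart, yet the mean over all 6 libraries was 36.2, just under the filter at 37.7, so MYCL was not tested. Without the filter, over all 24489 rows, its log2 difference was -3.95 (SE 0.53, limma adjusted p = 2.5e-12). This p-value is not on the scale of those from the filtered fit. For MYCN the limma adjusted p was 1.4e-17 without the filter and 1.4e-07 with it. The size of the MYCL difference rests on LACTB values of a few normalized counts, where the added 1 matters.

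MYC (chromosome 8, 127735434 to 127741434, plus strand) stood at 808, 700 and 663 normalized counts in the LACTB libraries, against 559, 649 and 608 in the vector libraries. Every LACTB value was above every vector value, but the gap between the nearest libraries was small. The log2 difference was 0.26 (SE 0.14, 95% interval -0.04 to 0.55, limma adjusted p = 0.14). The call depended on scaling. It was 0.45 (adjusted p = 0.021) with equal column totals, which moved the median of all genes to 0.24, and 0.52 (adjusted p = 0.0033) once the trend of the differences with transcript length and GC content was removed. It was 0.12 (adjusted p = 0.49) after median centring and 0.08 (adjusted p = 0.63) with quantile normalization.

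Levels of different genes were compared per kilobase of the longest annotated transcript. MYC dominated among the paralogs in every library. It made up 97.8%, 94.7% and 96.5% of the summed paralog level in LACTB libraries, against 72.0%, 73.5% and 75.2% in vector libraries. MYCN made up 2.06%, 4.96% and 2.82% in LACTB libraries, against 19.4%, 22.0% and 19.4% in vector libraries, and MYCL made up 0.142%, 0.337% and 0.665% in LACTB libraries, against 8.56%, 4.51% and 5.36% in vector libraries. The mean MYC share was 96.3% in LACTB libraries and 73.6% in vector libraries, 22.7 percentage points apart (n = 3 each, two-sided exact permutation test p = 0.1, the smallest that 3 against 3 can give). These shares do not depend on how the libraries were scaled against each other.

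**Figure D2:**
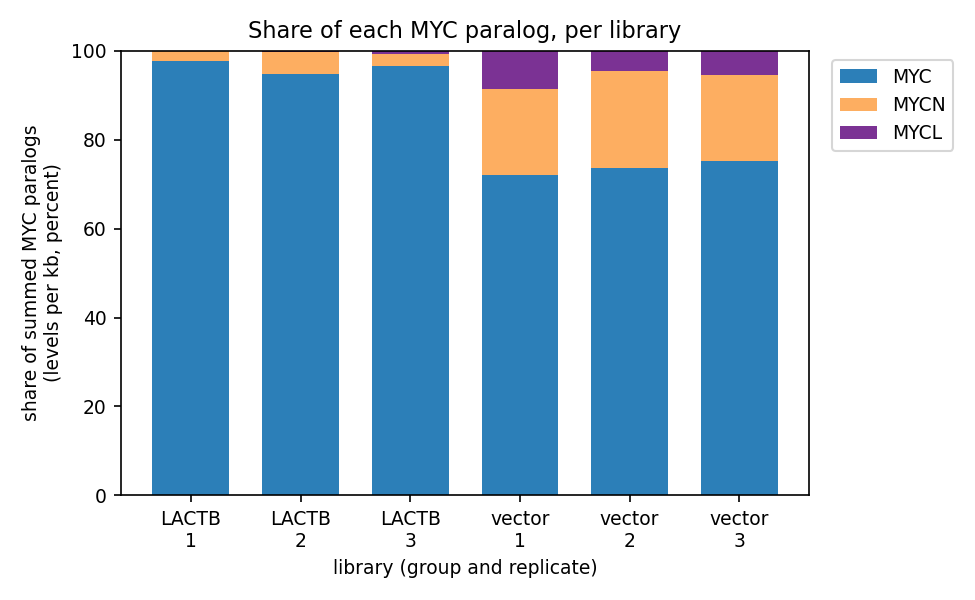
Share of MYC, MYCN and MYCL in their summed level per kilobase (percent) in each LACTB and vector library, as stacked bars. MYC holds 94.7% to 97.8% in LACTB libraries and 72.0% to 75.2% in vector libraries.

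Summed over the paralogs, the level was 349, 313 and 290 normalized counts per kilobase in LACTB libraries, against 328, 373 and 342 in vector libraries. These sums overlapped between the groups (log2 difference -0.13, two-sided exact permutation test p = 0.3), and the data do not show a difference in the paralog total. The ratio of MYC to MYCN per kilobase was 47.4, 19.1 and 34.3 in LACTB libraries, against 3.72, 3.35 and 3.88 in vector libraries.

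MAX (chromosome 14, 65006174 to 65102695, minus strand), the obligate partner of the MYC proteins, stood at 1841, 1829 and 2007 normalized counts in the LACTB libraries, against 2189, 2081 and 2212 in the vector libraries. The LACTB values were all a little lower. Its log2 difference came to -0.19 (SE 0.11, limma adjusted p = 0.16), and it reached the threshold only after median centring (-0.32, adjusted p = 0.028). MAX overlaps FNTB on the opposite strand, which can share reads with it if strand was not used. Per kilobase, MAX stood at 1.91 ± 0.263 times the summed MYC paralogs in LACTB libraries and 1.98 ± 0.185 times in vector libraries (SD, n = 3 each), with overlapping libraries.

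MLX (chromosome 17, 42567068 to 42573239, plus strand), the partner of the Mondo proteins, was the most abundant network gene per kilobase. It stood at 3718, 3537 and 3666 normalized counts in the LACTB libraries, against 5423, 4345 and 5120 in the vector libraries. The groups did not overlap, and MLX fell by 0.44 on the log2 scale (SE 0.11, limma adjusted p = 0.0026). The call held under every alternative run, with log2 differences between -0.57 and -0.24. MLX overlaps PSMC3IP by 925 bases on the opposite strand, which can share reads with it if strand was not used. Of the 50 tested genes nearest to MLX, 25 were called lower, 3 higher and the rest neither. Their median log2 difference was -0.33 (-0.15 with length and GC removed), and the part of the neighbourhood in the MLX result was not tested. Around MYCN the same median was 0.20, around MYC 0.18 and around MGA 0.15.

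Among the MXD repressors, MXD4 and MXD3 held most of the transcript. MXD4 (chromosome 4, 2247432 to 2262294, minus strand) stood at 2673, 2812 and 2881 normalized counts in the LACTB libraries, against 3044, 3253 and 4000 in the vector libraries. All LACTB values were lower, with vector library 3 standing highest. MXD4 fell by 0.29 on the log2 scale (SE 0.12, limma adjusted p = 0.045), close to the threshold. The call was lost under 9 of the alternatives, among them leaving out vector library 3 (-0.17, adjusted p = 0.17) and equal column totals (-0.10, adjusted p = 0.49).

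MXD3 (chromosome 5, 177301461 to 177312757, minus strand), expressed in proliferating cells, stood at 1592, 1510 and 1543 normalized counts in the LACTB libraries, against 1827, 1658 and 1902 in the vector libraries. The groups did not overlap but the difference did not pass (log2 difference -0.21, SE 0.12, limma adjusted p = 0.13), and with the length and GC trend removed it was 0.17. The gene overlaps RAB24 on the same strand and PRELID1 on the opposite one, so its reads may not all be its own. RAB24 stood at 301 to 343 normalized counts in LACTB libraries and 405 to 518 in vector libraries. PRELID1 stood at 5749 to 6397 and at 7453 to 10430. The part of these 2 genes in the MXD3 values, and in the antagonist sum below, was not tested. MXD1 (chromosome 2, 69897688 to 69942945, plus strand), induced in differentiation, was low at 84.7, 141 and 75.4 in LACTB libraries, against 102, 88.9 and 80.9 in vector libraries. Its groups overlapped, and the log2 difference was 0.10 (SE 0.27, 95% interval -0.46 to 0.65, limma adjusted p = 0.78). MXD1 overlaps SNRNP27 by 7888 bases on the same strand, so its reads may not all be its own either. SNRNP27 stood at 498 to 753 normalized counts over the libraries.

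MNT (chromosome 17, 2384060 to 2401118, minus strand), the broadly expressed MAX-binding repressor, stood at 677, 714 and 696 normalized counts in the LACTB libraries, against 455, 882 and 891 in the vector libraries. Vector library 1 stood below all LACTB libraries and the other vector libraries above them. Its log2 difference came to -0.03 (SE 0.19, limma adjusted p = 0.91). One library decided it, since without vector library 1 MNT was lower by 0.35 (log2 difference -0.35, adjusted p = 0.018).

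MGA (chromosome 15, 41621224 to 41773081, plus strand), the PRC1.6 scaffold, was the network gene that rose. It stood at 556, 633 and 517 normalized counts in the LACTB libraries, against 351, 363 and 346 in the vector libraries. The groups did not overlap, and its log2 difference came to 0.68 (SE 0.16, limma adjusted p = 0.00094), higher in 3 of 3 LACTB libraries. The longest MGA transcript is 14.4 kb, and the median log2 difference of all tested genes was 0.42 among the 3178 with the longest transcripts and -0.25 among the 3178 with the shortest. With the length and GC trend removed the MGA difference was -0.059 (adjusted p = 0.69).

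**Figure D3:**
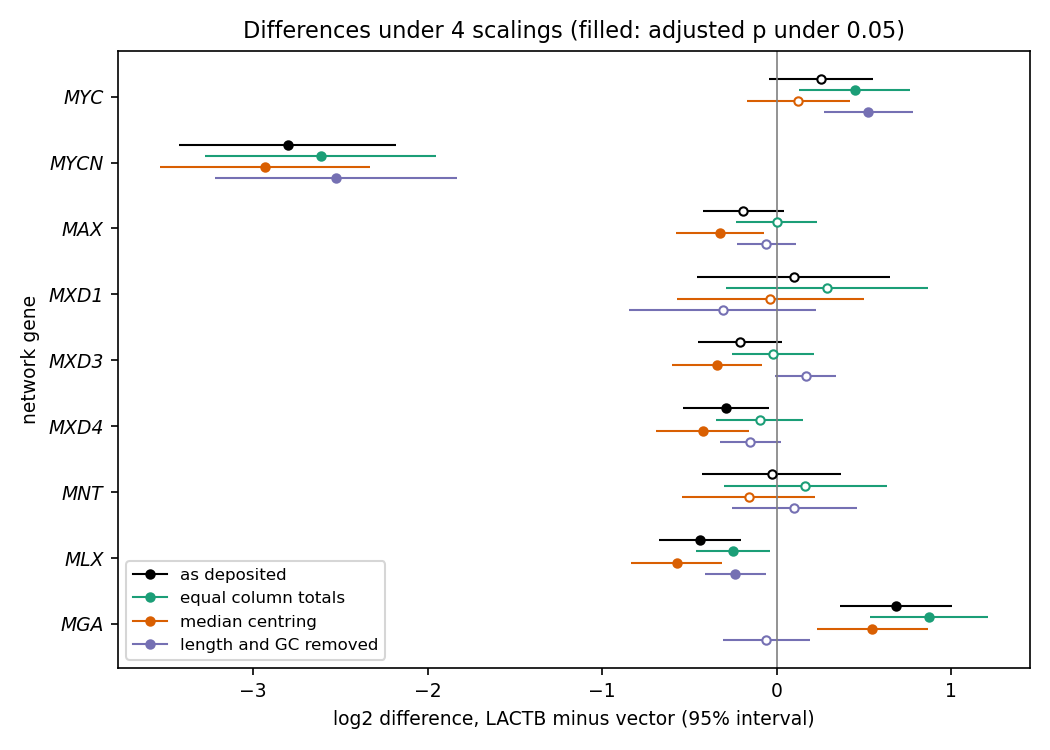
Log2 difference (LACTB minus vector) of the 9 network genes tested, as deposited and under equal column totals, median centring and removal of the length and GC trend. Bars are 95% intervals, and filled points have an adjusted p under 0.05. MYCN lies at -2.93 to -2.52 under all 4, MLX stays below 0, and MGA moves to -0.059 with length and GC removed.

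In order of level per kilobase in LACTB libraries, MLX came first at 1408 ± 36.1, followed by MXD3 at 680 ± 18.1, MXD4 at 660 ± 25.1 and MAX at 600 ± 31.6 normalized counts per kilobase (SD, n = 3). MYC followed at 306 ± 31.7, MNT at 139 ± 3.72, MGA at 39.4 ± 4.09, MXD1 at 18.0 ± 6.33, MYCN at 10.3 ± 4.54 and MYCL at 1.16 ± 0.723. Neighbours in this order whose libraries overlapped were MXD3 and MXD4, MXD4 and MAX, and MXD1 and MYCN. MYCN held rank 9 in LACTB libraries and rank 7 in vector libraries. In the vector libraries it stood at 70.5 ± 9.90 (SD, n = 3). Below it came MGA at 24.5 ± 0.632, MYCL at 21.1 ± 6.10 and MXD1 at 16.2 ± 1.92. There MGA overlapped with MYCL and MYCL with MXD1, while MYCN and MGA did not overlap. Ranks among MXD3, MXD4 and MAX depend on which transcript length is used, since with merged exons MAX stood at 427 and MXD3 at 300.5 normalized counts per kilobase in LACTB libraries.

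**Figure D4:**
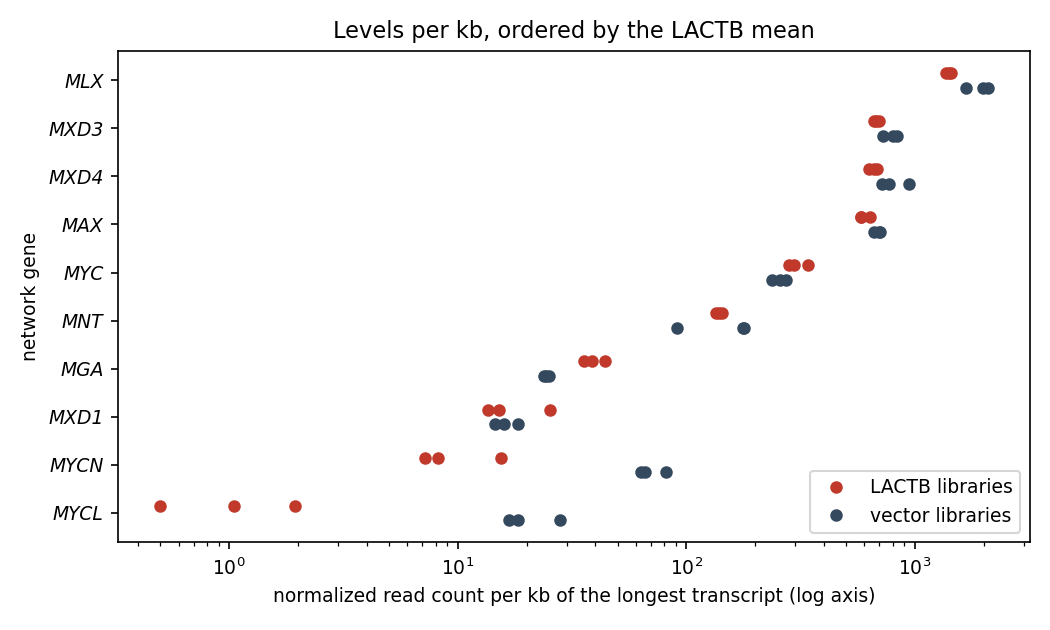
Normalized read count per kilobase of the longest transcript (log axis) for each network gene, with 3 points per group and genes in order of the LACTB mean. MLX is highest at 1408 and MYCL lowest at 1.16 in LACTB libraries.

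The antagonists MXD1, MXD3, MXD4, MNT and MGA were summed per kilobase. The sum was 1520, 1540 and 1547 normalized counts per kilobase in LACTB libraries, against 1655, 1715 and 1997 in vector libraries, without overlap (log2 difference -0.22, two-sided exact permutation test p = 0.1, the smallest possible). Undivided by length, the sums overlapped, at 5583 to 5810 in LACTB libraries and 5778 to 7219 in vector libraries. Their log2 difference was -0.16 (two-sided exact permutation test p = 0.2). Column totals were also lower in LACTB libraries, and the sum was not computed with equal column totals. A lower sum relative to the column totals is therefore not shown. At equal column totals MXD4 differed by -0.10 and MXD3 by -0.02 on the log2 scale (limma adjusted p = 0.49 and 0.90). MNT, MXD1 and MGA stood at 0.16, 0.29 and 0.87 there. The ratio of the sum per kilobase to the summed MYC paralogs was 4.35, 4.93 and 5.33 in LACTB libraries, against 5.05, 4.60 and 5.85 in vector libraries. These ratios overlapped between the groups (log2 difference -0.08, two-sided exact permutation test p = 0.5). MXD3 and MXD4 together made up 87.2% ± 0.848 of the antagonist sum in LACTB libraries and 89.5% ± 2.33 in vector libraries (SD, n = 3 each). The sum leaves out MXI1, a further MXD family member, which averaged 781 normalized counts in LACTB libraries and 988 in vector libraries (longest transcript 3.47 kb). These sums, ratios and shares therefore cover only the antagonists named here.

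Other genes of the pathway were followed in 8 lists written from general knowledge, but with earlier results of these data known. MLXIP (MondoA), a Mondo partner of MLX, stood at 3304 ± 47.7 normalized counts in LACTB libraries and 2362 ± 394 in vector libraries (SD, n = 3 each), and rose by 0.50 on the log2 scale (limma adjusted p = 0.0020). MXI1, the remaining MXD family member, stood at 781 ± 76.4 in LACTB libraries and 988 ± 91.0 in vector libraries and fell by 0.34 (adjusted p = 0.040), a call lost under 8 of the alternatives, among them equal column totals (-0.15, adjusted p = 0.40) and leaving out any 1 LACTB library, while the difference was -0.53 with length and GC removed. MLXIPL (ChREBP) averaged 1.18 normalized counts in LACTB libraries and 2.17 in vector libraries and was not tested. Of the glucose-responsive targets of these dimers, TXNIP, which inhibits thioredoxin and glucose uptake, stood at 1640 ± 320 in LACTB libraries and 3122 ± 580 in vector libraries and fell by 0.93 (adjusted p = 2.4e-05). KLF10 differed by 0.28 (adjusted p = 0.057), and ARRDC4 was under the filter.

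Of 51 tested genes that MYC is known to activate, 4 rose and 23 fell, and the test was not passed by the other 24. The median of their log2 differences was -0.19. The background was 27.4% higher and 24.5% lower. SHMT2, the mitochondrial serine hydroxymethyltransferase, stood at 10112 ± 894 normalized counts in LACTB libraries and 20319 ± 1823 in vector libraries, and fell by 1.01 (limma adjusted p = 3.7e-07). BOP1, a ribosome assembly factor, fell by 0.80 (adjusted p = 9.0e-06), while UTP20, which also serves ribosome assembly, rose by 1.08 (adjusted p = 4.8e-06). With length and GC removed BOP1 stood at -0.34 and UTP20 at 0.49, both past the threshold. Scaling moved these counts. When column totals were made equal, 12 rose and 14 fell (median 0.0015), and with median centring 2 rose and 25 fell (median -0.32). Quantile normalization gave 12 higher and 17 lower. Removal of length and GC gave 5 higher and 22 lower (median -0.19).

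Of 7 tested genes that MYC is known to repress, 1 rose, 4 fell and 2 did not pass (median -0.55), against 27.4% higher and 24.5% lower among all genes tested. The median was -0.22 with length and GC removed, where the counts were again 1 and 4. CEBPA, a differentiation factor, stood at 36.5 ± 7.60 in LACTB libraries and 182 ± 10.7 in vector libraries with a log2 difference of -2.31 (limma adjusted p = 2.8e-07). Like MYCN, CEBPA passed the low-value filter through the vector libraries alone, so its passing the test is partly given by that filter, and it was not tested at 5 CPM. NDRG4 fell by 0.95 (adjusted p = 2.5e-06) and NDRG2 by 0.98 (adjusted p = 3.3e-06). Activated and repressed targets alike held more genes that fell than rose as deposited.

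The protein partners moved in both directions. Of 12 MYC coactivators and chromatin partners, 2 rose and 5 fell (median -0.07), against 27.4% higher and 24.5% lower among all genes tested. The balance turned under other settings, with 5 higher and 2 lower at equal column totals and 4 higher and 3 lower with length and GC removed. RUVBL2 fell by 0.68 (limma adjusted p = 5.1e-05) and RUVBL1 by 0.45 (adjusted p = 0.0027), both ATPases of chromatin complexes, while EP400, the motor of a complex that contains them, rose by 0.59 (adjusted p = 0.0018). With length and GC removed RUVBL2 stood at -0.29 and EP400 at 0.30. RUVBL1 stood at -0.26 with equal column totals, and EP400 at 0.37 without vector library 1. All of these remained past the threshold.

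Of 11 SIN3 and HDAC corepressor subunits, through which MXD proteins and MNT act, 3 rose and 2 fell (median 0.20), against 27.4% higher and 24.5% lower among all genes tested. The corepressor NCOR1 rose by 0.93 (limma adjusted p = 1.4e-05), and by 0.39 with length and GC removed (adjusted p = 0.0066). The deacetylase HDAC1 fell by 0.38 (adjusted p = 0.011), a call lost under 5 alternatives, equal column totals (adjusted p = 0.16) among them, and SUDS3, a SIN3 subunit, rose by 0.38 (adjusted p = 0.022), a call lost under 6 alternatives, median centring (adjusted p = 0.13) among them. The balance of the list depended on the setting, with 6 higher and 0 lower at equal column totals, 1 higher and 2 lower after median centring, and 4 higher and 5 lower with length and GC removed.

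Of 11 PRC1.6 partners of MGA, 1 rose, 1 fell and 9 did not pass (median 0.07), whereas 51.9% of all genes tested passed. RYBP, a PRC1 subunit, rose by 0.92 (limma adjusted p = 8.7e-06), and by 0.36 with length and GC removed (adjusted p = 0.0055). The ubiquitin ligase RING1 fell by 0.32 (adjusted p = 0.025), which was lost under 8 alternatives, equal column totals (adjusted p = 0.33) among them, and stood at 0.12 with length and GC removed, and E2F6, a repressor that recruits the complex, differed by 0.32 (adjusted p = 0.061). In the list 3 rose and 0 fell with equal column totals, and 1 rose and 2 fell with length and GC removed.

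Of 16 regulators of MYC protein turnover, 4 rose and 2 fell (median 0.05), against 27.4% higher and 24.5% lower among all genes tested. With length and GC removed the balance was the opposite, 2 higher and 4 lower, and with equal column totals it was 7 higher and 1 lower. CIP2A, an inhibitor of the phosphatase PP2A that stabilizes MYC protein, stood at 771 ± 87.6 normalized counts in LACTB libraries and 323 ± 71.7 in vector libraries and rose by 1.27 (limma adjusted p = 3.5e-06). The ubiquitin ligase HUWE1 rose by 0.96 (adjusted p = 1.3e-05) and the ligase STUB1 fell by 0.69 (adjusted p = 3.8e-05). With length and GC removed HUWE1 stood at 0.55 and STUB1 at -0.19 (adjusted p = 0.030). Protein levels were not measured.

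**Figure D5:**
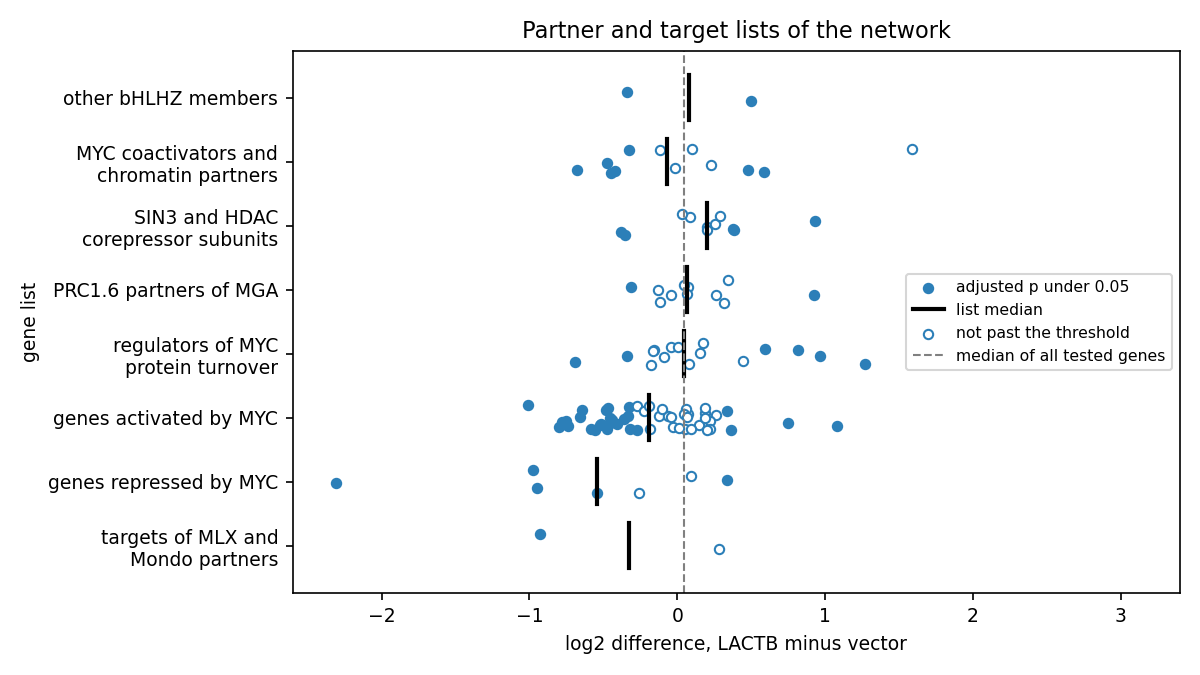
Log2 difference (LACTB minus vector) of each tested gene in the 8 partner and target lists, with filled points for an adjusted p under 0.05, a black bar for the list median and a dashed line for the median of all tested genes. The activated list has 23 filled points below 0 and 4 above.

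The genes whose log2 values over the 6 libraries were most like those of MYC were FANCA (Pearson r = 0.994), COL1A1 (0.988), PXDC1 (0.985), NKILA (0.982) and ABLIM1 (0.976). The libraries form 2 groups and number 6, so such values describe these libraries and carry no test. Like MYC, each was highest in LACTB library 1 and lowest in vector library 1.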

How the data were processed

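The submitters' processing notes name HISAT2 and the build hg38. How reads were counted and normalized, and with which annotation, is not given in the sources used here. Deposited values are a signal, a normalized read count per gene, not whole numbers. Each vector library held the same number of genes above 0 (22538), while LACTB libraries 1, 2 and 3 held 20809, 20500 and 23061. Whether the vector columns were adjusted together, which would bear on their spread and on the p-values, is not known. At the best single step per library, 36.6% to 61.1% of low values were whole within 0.05. The 10% given by chance holds for a step fixed beforehand, not for the best of many steps. Reads were thus not recovered, and the depth is unknown. Values below 1e-10 were set to 0. The 12942 genes averaging 1 CPM or more went into limma 3.58.1 in R 4.3.3 (trend, robust, group only, two-sided, Benjamini-Hochberg adjustment, threshold 0.05) on log2(value + 1), which understates changes of low genes. Differences are LACTB minus vector. Positions and lengths came from GENCODE release 29 on GRCh38. For the trend in length and GC, natural splines with 5 degrees of freedom each were removed from every library (98.2% of tested genes). Of each list, the 3 genes with the smallest adjusted p were named. The members and lists were chosen with earlier results of these data known. TRRAP, TRIM32 and CDKN2B were not analysed here.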

Additional observations from a re-analysis of the deposited data

How the results depend on the processing

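MYCN and MLX kept their calls under each alternative in which they were tested, and MXD1 passed under none. With equal column totals 1913 genes were lower (3177 as deposited), 2 network genes rose, and MYC reached 0.45 and MXD4 -0.10. Median centring called 5 network genes lower, adding MAX (-0.32) and MXD3 (-0.34). MXD4 also lost its call with quantile normalization (-0.20), without the filter and without the trend and robust settings (-0.29 each), and with length and GC removed (-0.15), where MYC passed at 0.52 and MGA stood at -0.059. Leaving out each library gave -0.37 to -0.17 for MXD4, -0.35 to 0.14 for MNT and -0.16 to 0.010 for the log2 ratio of antagonists to MYC paralogs, which was 0.023 without division by length. The MYC share differed by 22.7 percentage points per longest transcript, 25.0 per merged exons and 25.3 undivided. MYCN and MXD1 were not tested at 5 CPM. With the replicate block 6878 genes passed (6720 without it), and no network call changed. Same-numbered libraries deviated together little (r = 0.02, 0.18 and 0.004 for replicates 1, 2 and 3). No pairing by number was seen, but 3 libraries per group cannot exclude it. The unknown depth limits MYCL most, at a few normalized counts in LACTB libraries.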
